A study of Mus musculus with 21 samples.

Results

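The genes described here are 8 that mark fat cells: Adipoq, Lep, Retn, Cfd, Plin1, Plin4, Cidec and Fabp4. They were taken by symbol from a table of 24062 genes measured in mouse colon, and all 8 were found. RNA depleted of ribosomal RNA was sequenced in 21 libraries that form 7 groups of 3, from C57BL/6 mice that were wild-type or were App NL-G-F, a line whose gene for amyloid precursor protein was edited to carry mutations known from familial Alzheimer's disease (called knock-in below). Normal colon came from wild-type males, knock-in males, wild-type females and knock-in females. Tumours came from wild-type males, knock-in males and wild-type females given AOM/DSS, in which azoxymethane starts tumours and dextran sulfate sodium causes colitis. The labels give normal libraries as untreated, whereas the series text speaks of normal tissue beside tumours or of colon in which none had formed. Ages are not in the labels, and neither is a statement that the libraries of a group came from separate animals, so the p-values measure the spread between these libraries, which may be technical. In the knock-in female normal group 2 columns share a name and are called a and b here.

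White adipocytes store triglyceride in a large lipid droplet and secrete hormones into the blood. The colon wall is joined to the mesentery, whose fat lies against the outer side of the muscle coat, and a dissected piece of colon can carry some of it. Of the 8 genes, 4 encode secreted proteins: adiponectin (Adipoq), a hormone that acts on insulin sensitivity, leptin (Lep), the satiety hormone, resistin (Retn), and adipsin or complement factor D (Cfd), a protease of the alternative complement pathway. Plin1 and Plin4 encode perilipins, proteins that coat lipid droplets, and Cidec encodes a protein that promotes droplet fusion. Fabp4 encodes a fatty acid binding protein that is abundant in adipocytes and is also made by capillary endothelium and macrophages.

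Promoter sequences of 7 of the 8 genes were found in RefSeq (GRCm38.p6), each running from 250 bases before to 50 bases after a transcription start. The sequences of 3 are shown, because Adipoq and Lep were read from the same few libraries and Plin4 was not. Capitals mark CCAAT in either orientation and TTGCGCAA, a palindrome bound by C/EBP factors, and each sequence reads 5′ to 3′ on the strand of its gene.
Adipoq, chr16:23146286-23146585 (+ strand): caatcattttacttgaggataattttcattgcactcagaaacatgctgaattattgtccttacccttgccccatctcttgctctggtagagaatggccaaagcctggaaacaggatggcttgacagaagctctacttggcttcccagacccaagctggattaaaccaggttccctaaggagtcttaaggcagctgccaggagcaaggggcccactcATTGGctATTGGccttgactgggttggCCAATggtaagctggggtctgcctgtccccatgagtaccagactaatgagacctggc
Lep, chr6:29059971-29060270 (+ strand): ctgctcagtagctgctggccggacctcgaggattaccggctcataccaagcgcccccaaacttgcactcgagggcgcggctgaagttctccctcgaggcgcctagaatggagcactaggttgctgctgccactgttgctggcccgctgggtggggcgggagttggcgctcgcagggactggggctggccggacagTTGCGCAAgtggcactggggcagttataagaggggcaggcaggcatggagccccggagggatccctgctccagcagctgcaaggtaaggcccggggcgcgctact
Plin4, chr17:56109733-56110032 (- strand): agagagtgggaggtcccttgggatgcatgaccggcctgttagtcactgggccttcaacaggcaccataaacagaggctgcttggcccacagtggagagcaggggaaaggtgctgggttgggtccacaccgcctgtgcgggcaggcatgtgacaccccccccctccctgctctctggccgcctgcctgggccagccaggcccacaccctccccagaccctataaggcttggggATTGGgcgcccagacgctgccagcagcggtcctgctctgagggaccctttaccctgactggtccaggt
The Adipoq window held 3 matches to CCAAT and the Plin4 window 1, and 37.4% of 32851 promoters of the same length held at least 1. The Lep window held 1 match to TTGCGCAA, present in 0.183% of promoters. No window of the 7 genes held TATAAA (13.6% of promoters), AGGTCA, a nuclear receptor motif (16.3%), its direct repeat spaced by 1 base (0.0396%), or the CArG box known from smooth muscle genes (1.63%). Both strands were searched, and Cidec, with a pair of windows, held none in either.

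In GENCODE annotation of GRCm38 (mm10), Adipoq lies on chromosome 16 from 23146536 to 23158028, Lep on chromosome 6 from 29060220 to 29073877, Retn on chromosome 8 from 3655770 to 3660110, and Cfd on chromosome 10 from 79890853 to 79892655, all on the plus strand. On the minus strand, Plin1 lies on chromosome 7 from 79720218 to 79732903, Plin4 on chromosome 17 from 56100591 to 56109803, Cidec on chromosome 6 from 113424634 to 113435760, and Fabp4 on chromosome 3 from 10204088 to 10208576.

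Library totals ran from 3414123 to 26174008 counts. Values are given as counts or as CPM, the usual scaling of counts to a common library total, here after TMM normalization. All 6 markers of colon epithelium were detected in each library, with summed levels of 4113 to 7972 CPM. All 6 were lower in tumours of wild-type males and of wild-type females and none in knock-in males. Of all tested genes 19.3%, 24% and 9.97% were lower in these comparisons. The low-count filter left 15936 genes for testing, among them Plin4, Cidec, Fabp4 and Cfd, whereas Adipoq, Lep, Retn and Plin1 fell under it. Intervals on single counts and limits on zeros below cover counting error only.

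Adiponectin transcripts were read from 5 of 21 libraries, all of normal colon. In wild-type males Adipoq had 44, 6 and 1 counts in normal replicates 1, 2 and 3, which are 2.08, 0.449 and 0.0995 CPM. In knock-in males it had 14, 0 and 0 counts, and in wild-type females 14, 0 and 0, again with replicate 1 as the library that held them. Knock-in female normal colon and all 9 tumour libraries had 0 counts. A count of 0 allows up to 3 counts, which in the tumours is 0.177 to 0.873 CPM depending on the library.

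Depth was read beside Adipoq in these groups. In knock-in males the library with Adipoq was not the deepest. Replicate 1, with 14 counts of Adipoq, had 10680185 counts in all, and replicate 2, with none, had 15596829. In wild-type females replicate 1 was the deepest library of the series (26174008 counts against 7815047 and 6429958), and its Adipoq level was 0.592 CPM (95% exact Poisson interval 0.324 to 0.993). That interval covers the limits of 0.418 and 0.465 CPM that 0 counts allow in replicates 2 and 3, each taken singly. The overlap does not decide whether the libraries differed, and the difference was not tested.

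Adipoq pooled over each normal group was set against 3 counts in the tumours, the limit of their zeros. The normal level was 10.7-fold this limit for wild-type males, 5.13-fold for knock-in males and 3.14-fold for wild-type females. Only the tumour zeros carry counting error in these ratios. The normal counts (51, 14 and 14) were taken as exact, and the spread between libraries was not included. These ratios rested on normal replicate 1. Without it the ratio in wild-type males was 2.81-fold, and in the other comparisons no counts remained and no fold can be given.

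Leptin was lower in counts and had the same place. Lep had 22, 1 and 0 counts in the wild-type male normal libraries, 4, 0 and 0 in those of knock-in males, 2, 0 and 0 in those of wild-type females, and 0 in all 9 tumours. Knock-in female normal library a had 2 counts and the other two of that group none. In wild-type males the pooled level in normal colon, with its 23 counts taken as exact, was 4.85-fold the limit of 3 counts in the tumours. Without normal replicate 1 a single count remained there and no fold can be given. The 4 and 2 counts of the knock-in male and wild-type female groups are too few for a fold.

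Perilipin 1, the main droplet coat of white fat, followed the same libraries. Plin1 had 27, 4 and 0 counts in wild-type male, 6, 0 and 0 in knock-in male and 7, 0 and 0 in wild-type female normal colon. Among the tumours, 2 libraries had 1 count each and 7 had none. Knock-in female normal colon had no counts.

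Resistin was less tied to normal colon. Retn had 14, 3 and 0 counts in wild-type male, 4, 0 and 0 in knock-in male and 2, 0 and 0 in wild-type female normal libraries. Tumours held 7 of its 31 counts, and 4 of these came from wild-type female tumour replicate 1, at 0.543 CPM with a 95% exact Poisson interval of 0.148 to 1.39. The highest normal level was 0.661 CPM (0.362 to 1.11) in wild-type male replicate 1, and these intervals overlap.

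Adipoq, Plin1, Lep and Retn together gave 187 counts in the 21 libraries. Normal replicate 1 of wild-type males, knock-in males and wild-type females, 3 libraries singled out after their values were seen, held 160 of them (85.6%) and 22.7% of all library counts. Tumours held 9. All 8 genes were detected together in those 3 libraries and in wild-type male normal replicate 2, and in no other library. Knock-in female normal replicate 1 held 1 count of the 4 genes.

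**Figure D1:**
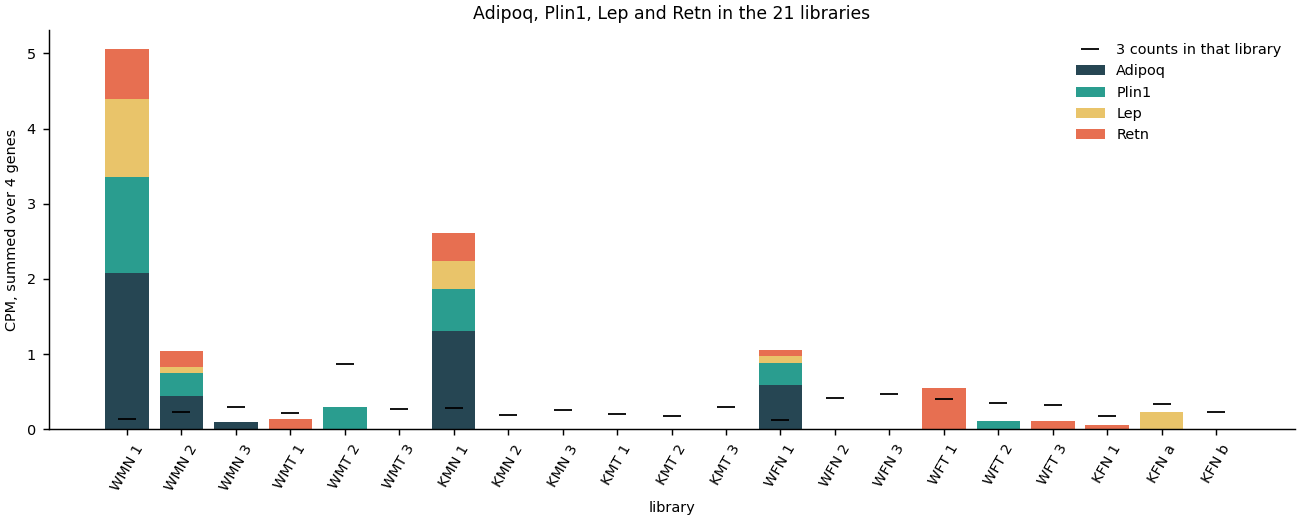
Level in CPM (vertical axis, from 0) of Adipoq, Plin1, Lep and Retn stacked for each of the 21 libraries (horizontal axis; W wild-type, K knock-in, M male, F female, N normal, T tumour, then replicate), with a dash at the level that 3 counts would have in that library. The stacks reach 5.05, 2.62 and 1.06 CPM in normal replicate 1 of wild-type males, knock-in males and wild-type females and 1.05 in wild-type male normal replicate 2, and the highest tumour stack is 0.543.

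Markers of other tissues that can be dissected with the colon were read for the same 3 libraries. Of 7 mesothelial markers, which mark the serosal lining, summed levels were 12.8 CPM in wild-type male replicate 1 (7.94 and 3.58 in replicates 2 and 3), 10.2 in knock-in male replicate 1 (30.8 and 11.8) and 38.0 in wild-type female replicate 1 (26.9 and 7.43). Msln (6.90 CPM) and Gpm6a (4.16 CPM) made up most of the sum in wild-type male replicate 1, whereas Upk3b was at 0 there and Wt1, Lrrn4 and Upk1b were higher in another library of the group. Nkain4 was at 0.661 CPM there (0.150 and 0.597 in replicates 2 and 3). In wild-type female replicate 1 each of the 7 markers was the highest of its group, with Upk3b at 7.69 and Lrrn4 at 4.82 CPM. In knock-in male replicate 1 each was lower than in replicate 2. In tumours of wild-type males the sums were 30.6 to 46.5 CPM, of which Msln gave 28.2 to 44.8. The 6 pancreatic acinar markers summed to 6.82 CPM in knock-in male replicate 1, the highest of all libraries, where the other 11 normal libraries had 0.225 to 1.75 CPM and the tumours 0.109 to 3.39. The tumour at 3.39 CPM, wild-type female replicate 2, had no counts of Adipoq, Lep or Retn and 1 count of Plin1. In wild-type male and wild-type female replicate 1 the acinar sums were 1.75 and 1.10 CPM, against up to 1.19 and 0.774 CPM in the other normal libraries of their groups. The acinar sum was thus the highest of its group in all 3 libraries, but by small margins outside knock-in males. No acinar marker had more than 11 counts in wild-type male or wild-type female replicate 1, and these margins were not tested. The part of these tissues in the levels of the 8 genes was not tested.

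Adipsin had the steepest contrast of the tested genes. In wild-type males Cfd had 87, 19 and 3 counts in normal colon (4.11, 1.42 and 0.298 CPM) against 3, 0 and 1 in tumours (0.216, 0 and 0.0921 CPM). The groups did not overlap in CPM, but their nearest libraries lay within counting error of each other. Normal replicate 3 and tumour replicate 1 both rested on 3 counts. Their exact Poisson intervals, 0.062 to 0.872 and 0.045 to 0.631 CPM, overlap. Cfd in tumour replicate 2, at 0 counts, had a limit of 0.873 CPM, above the level in normal replicate 3. In knock-in males it had 80, 1 and 2 counts in normal colon (7.48, 0.0633 and 0.173 CPM) and 6, 3 and 1 in tumours (0.408, 0.177 and 0.0979 CPM), so that replicate 1 lay far above and the other two within the range of the tumours or below it. In wild-type females it had 25, 2 and 0 counts in normal colon and 2, 1 and 1 in tumours. Knock-in female normal colon had 4, 4 and 2 counts.

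By edgeR's quasi-likelihood test, adjusted by Benjamini-Hochberg, the log2 difference of Cfd between tumour and normal was -3.79 (SE 1.52, adjusted p = 0.0616) for wild-type males. It was -3.36 (SE 1.30, adjusted p = 0.0749) for knock-in males and -1.76 (SE 1.65, adjusted p = 0.397) for wild-type females, and none passed the threshold of 0.05. In wild-type males the replicate block gave -4.14 with adjusted p = 0.0123. That block gives each replicate number an effect shared by 18 libraries of both genotypes and sexes. It is therefore not a pairing of wild-type male libraries alone. Leaving out any of the 3 knock-in male normal libraries, which share the estimate of the spread, also put Cfd past the threshold in wild-type males, with adjusted p between 0.0086 and 0.0415. Over all omissions of 1 library the wild-type male difference lay between -4.71 and -2.64, with adjusted p up to 0.239 by edgeR. In the knock-in males themselves the difference was 0.97 (adjusted p = 0.631) without normal replicate 1, the opposite direction, and -4.00 (adjusted p = 0.0268) without replicate 2. In wild-type females it was 0.13 (adjusted p = 0.975) without normal replicate 1.

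Plin4 was the most abundant of the 8 genes in counts and was detected in every library. In wild-type males it had 35.2, 13.0 and 34.9 CPM in normal colon and 7.13, 5.53 and 9.03 in tumours, with no overlap. In knock-in males normal colon had 39.2, 24.6 and 20.6 CPM and tumours 8.51, 9.35 and 26.0. Tumour replicate 3 lay inside the normal range and the other two below it. In wild-type females normal colon had 12.9, 8.08 and 18.4 CPM and tumours 5.43, 8.19 and 6.52, with an overlap at the lowest normal library. The knock-in female normal libraries had 31.5, 39.0 and 29.6 CPM.

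In wild-type males Plin4 fell by 1.90 on the log2 scale in tumours (SE 0.45, adjusted p = 0.00387, edgeR), which is a 3.73-fold difference. In knock-in males the difference was -0.96 (SE 0.42, adjusted p = 0.115) and in wild-type females -0.96 (SE 0.46, adjusted p = 0.0921). Both calls changed when knock-in male tumour replicate 3 was left out. Without it Plin4 was at -1.65 in knock-in males (adjusted p = 0.0154), and at -0.96 (adjusted p = 0.0398) in wild-type females, where it enters only the shared estimate of the spread. Running numbers of 152 or above in the labels belong to knock-in male tumour replicate 3 and wild-type female tumour replicates 2 and 3. With these libraries as a covariate, the differences were -1.47 (adjusted p = 0.0217) and -1.70 (adjusted p = 0.00869). The covariate is not separate from the omission above, and in wild-type females only tumour replicate 1 lies outside it.

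The fatty acid binding protein gene was also lower in wild-type male tumours. Fabp4 had 14.2, 9.88 and 9.55 CPM in the normal libraries of wild-type males and 1.22, 6.40 and 5.71 CPM in their tumours, without overlap and with tumour replicate 1 lowest of all 21 libraries. It fell by 1.42 on the log2 scale (SE 0.41, adjusted p = 0.0123, edgeR), a 2.68-fold difference. With only the 6 libraries of these groups in the fit, the adjusted p was 0.0766, and it was 0.0680 when normal replicate 1 of wild-type males, knock-in males and wild-type females was left out together. In knock-in males Fabp4 had 10.2, 6.96 and 9.77 CPM in normal colon and 7.89, 6.63 and 6.17 in tumours (log2 difference -0.37, SE 0.39, adjusted p = 0.511). In wild-type females it had 4.35, 2.79 and 5.73 against 3.80, 3.74 and 3.59 CPM (log2 difference -0.21, SE 0.42, adjusted p = 0.711), and without normal replicate 3 the sign turned, to 0.018.

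Cidec was low and scattered in every group. In wild-type males it had 2.17, 1.35 and 0.597 CPM in normal colon and 0.864, 0.873 and 1.47 in tumours, which overlap. In knock-in males it had 2.90, 0.633 and 3.37 CPM in normal colon and 1.63, 0.414 and 0.979 in tumours, also with overlap. In wild-type females the 3 normal levels (0.972, 0.557 and 0.619 CPM) were above the 3 tumour levels (0.407, 0.468 and 0.435), which rest on 3 to 4 counts each. The log2 differences were -0.37 (SE 0.64), -1.17 (SE 0.61) and -0.78 (SE 0.77), with adjusted p = 0.691, 0.179 and 0.417 by edgeR. In wild-type males the sign turned, to 0.12, without normal replicate 1.

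Of the 4 tested genes, tumours of wild-type males thus had 2 past the threshold (Plin4 and Fabp4, both lower), where 35.7% of all tested genes passed. In knock-in males 0 of 4 passed against 20.4% of all tested genes, with 2 at an unadjusted p under 0.05 (Plin4 and Cfd). In wild-type females 0 of 4 passed against 49.1%, with none at an unadjusted p under 0.05. DESeq2 also called Cfd in wild-type males (adjusted p = 0.0237) and in knock-in males (adjusted p = 0.0400), and Plin4 in wild-type females (adjusted p = 0.0472). No tested gene differed between males of the 2 genotypes in its tumour effect (1.51% of all genes passed) or between wild-type males and females (1.12%), with none at an unadjusted p under 0.05, and DESeq2 also called 0 in both. For Fabp4 the difference of the tumour effect was 1.05 (SE 0.57, adjusted p = 0.249) between genotypes and 1.21 (SE 0.59, adjusted p = 0.374) between sexes. For Plin4 the corresponding values were 0.94 (SE 0.61, adjusted p = 0.341) and 0.94 (SE 0.64, adjusted p = 0.570). In whole tissue, fewer cells of a type and less RNA per cell cannot be told apart.

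**Figure D2:**
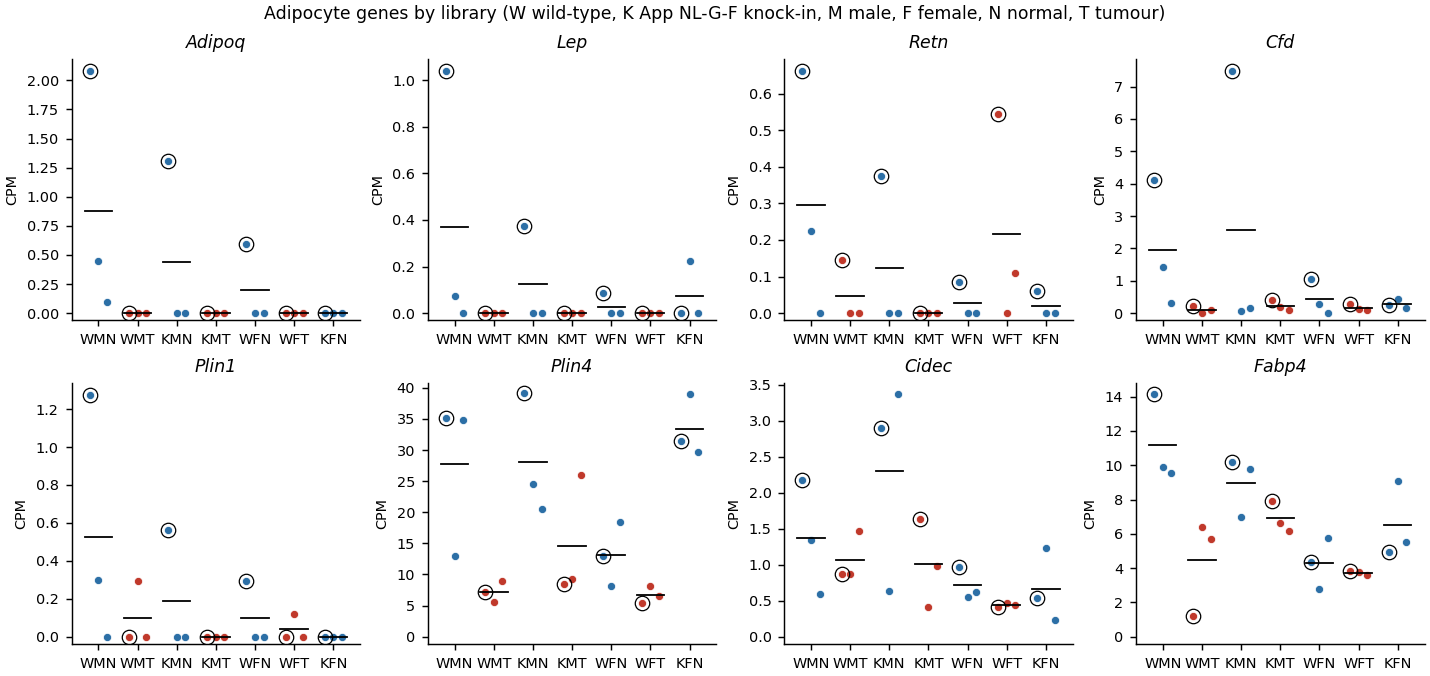
Level in CPM (vertical axes, linear) of each gene in the 7 groups (W wild-type, K knock-in, M male, F female, N normal in blue, T tumour in red), with a point per library, a bar at the group mean and a ring around replicate 1. In Adipoq, Lep, Plin1 and Cfd the ringed normal libraries of wild-type and knock-in males stand apart, up to 2.08, 1.04, 1.28 and 7.48 CPM, whereas Plin4 and Fabp4 are spread over all normal libraries.

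**Figure D3:**
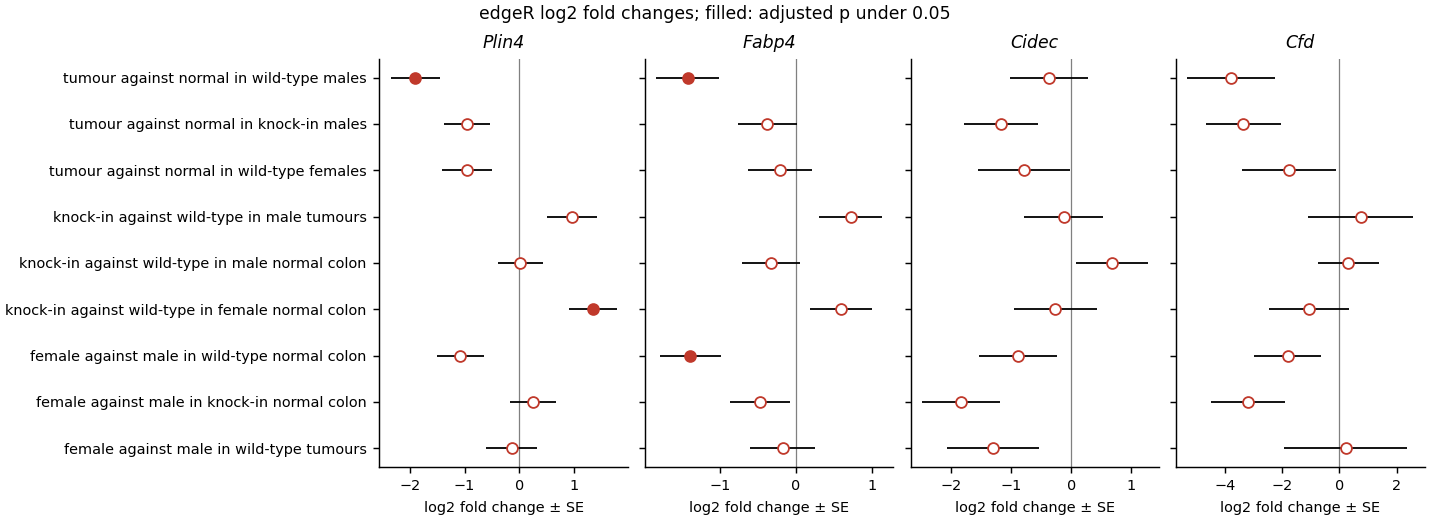
Log2 fold change with its SE (horizontal axes) of the 4 tested genes in the 9 comparisons of group pairs (vertical axis), from edgeR, with filled points for an adjusted p under 0.05. The filled points are Plin4 at -1.90 and Fabp4 at -1.42 for wild-type male tumours, Plin4 at 1.35 for knock-in against wild-type female normal colon, and Fabp4 at -1.39 for female against male wild-type normal colon.

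Genotype was compared in normal colon and in male tumours. In female normal colon Plin4 was higher in knock-in mice (31.5, 39.0 and 29.6 CPM) than in wild-type mice (12.9, 8.08 and 18.4 CPM), without overlap. The log2 difference was 1.35 (SE 0.43, adjusted p = 0.0428, edgeR), 2.54-fold. This was 1 of 4 tested genes, where 16.0% of all tested genes passed. The call was close to the threshold: the adjusted p lay between 0.0504 and 0.177 without wild-type male tumour replicate 1 or 3, wild-type female normal replicate 1 or 2, wild-type female tumour replicate 2 or 3, or any of the 3 knock-in female normal libraries, with the log2 difference between 1.11 and 1.43. It was also lost without the low-count filter (adjusted p = 0.0610). In male normal colon Plin4 differed by 0.02 (SE 0.42, adjusted p = 1.00, 95% interval -0.85 to 0.89), and 0 of the 4 genes passed or had an unadjusted p under 0.05, against 0.0126% of all tested genes. The difference between the sexes in this genotype effect was 1.33 for Plin4 (SE 0.60, unadjusted p = 0.0398 and adjusted p = 0.255 by edgeR). It passed in 0 of 4 genes, of which Plin4 alone had an unadjusted p under 0.05, and in 2.54% of all. In male tumours 0 of 4 genes passed against 14.5% of all. Plin4 there differed by 0.96 (SE 0.45, adjusted p = 0.149) and was the only one of the 4 with an unadjusted p under 0.05 (0.0476). DESeq2 called none of the 4 in these last 3 comparisons.

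Sex was compared within genotype and tissue. In wild-type normal colon Fabp4 was lower in females (4.35, 2.79 and 5.73 CPM) than in males (14.2, 9.88 and 9.55 CPM), without overlap. The log2 difference was -1.39 (SE 0.40, adjusted p = 0.0259, edgeR), 2.62-fold. It was the only one of 4 past the threshold, where 15.9% of all tested genes passed, and Plin4 was at -1.08 (SE 0.43, adjusted p = 0.0942). Fabp4 was not past the threshold without wild-type male normal replicate 1 (adjusted p = 0.110) or wild-type female normal replicate 1 (0.0832) or 2 (0.123). Plin4 passed without wild-type male normal replicate 2 (-1.43, adjusted p = 0.0371) and without knock-in male tumour replicate 3 (adjusted p = 0.0430). In knock-in normal colon 0 of 4 passed against 0.584% of all, with unadjusted p under 0.05 for Cidec and Cfd. Cidec was at -1.83 (SE 0.65, adjusted p = 0.177), and at -2.29 with adjusted p = 0.0446 without knock-in male normal replicate 2. In wild-type tumours 0 of 4 passed, and none had an unadjusted p under 0.05, against 0.860% of all. DESeq2 called none in these last 2 comparisons.

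The 8 genes differed in how far normal replicate 1 of wild-type males, knock-in males and wild-type females carried them. Those 3 libraries held 91.1% of the counts of Adipoq, 90.3% of Lep, 87.0% of Plin1, 77.7% of Cfd, 64.5% of Retn, 34.8% of Cidec, 29.4% of Fabp4 and 29.4% of Plin4, beside 22.7% of all library counts. When the 3 were left out together, which was decided with the values known, Plin4 in wild-type male tumours was at -1.71 (adjusted p = 0.0199) and remained past the threshold. Per kilobase of the longest coding transcript, Fabp4 had a median level over the 21 libraries of 6.88 CPM, Plin4 2.26, Cidec 0.502 and Cfd 0.234, and Adipoq, Plin1, Lep and Retn had a median of 0. Even at its highest, Adipoq reached 1.61 CPM per kilobase, below the median of Plin4 and of Fabp4. Fabp4 and Plin4 were read from all 21 libraries, 16 of which had no Adipoq.

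Levels of the tested genes were set against markers of other cell types of the colon wall. Smooth muscle was lower in tumours throughout: all 8 of its markers, among them Myh11, the smooth muscle myosin heavy chain, Acta2, Tagln and Des, fell in each of the 3 tumour comparisons, with median log2 differences of -4.06, -2.54 and -4.20 (0.01 over all genes tested in each). Of all tested genes 19.3%, 9.97% and 24% were lower in these comparisons. Summed levels in wild-type males were 2862 to 9728 CPM in normal colon and 192 to 754 in the tumours, 4569 to 8287 and 888 to 1006 in knock-in males, and 1984 to 4593 and 176 to 212 in wild-type females. In knock-in female normal colon they were 6879 to 9723 CPM. There 3 of 8 markers were higher than in wild-type females, as were 8.97% of all tested genes. None of the 8 was at 0 in any library.

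Plin4 moved with the smooth muscle markers over the 12 normal libraries. On log2 scales, with 1 CPM added to the gene, Pearson's r was 0.979 (permutation p = 1e-05, the smallest that 100000 resamples can give, adjusted p = 0.00024) and Spearman's rho 0.895 (permutation p = 0.00025, adjusted p = 0.006). Without the 2 libraries farthest from the median of the marker sum r was 0.956, and with the group means taken out it was 0.970. The lowest Plin4 level in normal colon, 8.08 CPM in wild-type female replicate 2, came with the lowest marker sum, 1984 CPM, and the 39.0 to 39.2 CPM of knock-in female a and knock-in male replicate 1 with 9723 and 8287 CPM. Over the 9 tumours r was 0.612 (exact permutation p = 0.0267, adjusted p = 0.0915) and rho 0.567 (exact permutation p = 0.121, adjusted p = 0.289), and 0.122 with group means taken out. Knock-in male tumour replicate 3, with 26.0 CPM of Plin4, had a marker sum of 888 CPM, lower than the 996 and 1006 of the other knock-in tumours. The part of smooth muscle in the Plin4 differences between groups was not tested. All r and rho given here belong to a family of 24, the 4 tested genes against 3 marker sums in normal and in tumour libraries, and adjusted p are over that family. The permutations moved libraries across groups, so their p also reflect differences between groups.

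Fabp4 in normal colon moved with 6 markers of blood endothelium. In the 12 normal libraries r was 0.794 (permutation p = 0.00107, adjusted p = 0.0128) and rho 0.783 (permutation p = 0.00386, adjusted p = 0.0262). The r was 0.582 without the 2 farthest libraries and 0.468 with group means taken out. Summed endothelial levels in wild-type normal colon were 53.9 to 85.2 CPM in females and 119 to 168 in males. In the same comparison in which Fabp4 was lower in females, 5 of the 6 markers were too, as were 10.2% of all tested genes. In tumours r was 0.199 (exact permutation p = 0.559, adjusted p = 0.677; rho 0.25, adjusted p = 0.764). Endothelial sums in wild-type male tumours were 144 to 182 CPM, with 1 of 6 markers higher and none lower, while Fabp4 was lower there. Of all tested genes 16.5% were higher and 19.3% lower in that comparison. Among wild-type male tumours, replicate 1 had the lowest Fabp4 level (1.22 CPM) with an endothelial sum of 165 CPM. Fabp4 also had a rho of 0.9 with smooth muscle in the tumours (exact permutation p = 0.00203, adjusted p = 0.0243), with r at 0.727 (exact permutation p = 0.0126, adjusted p = 0.0604). That r was 0.601 with group means taken out. None of the 6 endothelial markers was at 0 in any group, and the part of endothelium in these results was not tested.

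Cidec moved against the 6 epithelial markers over the 12 normal libraries, with r = -0.795 (permutation p = 0.00229, adjusted p = 0.0183) and rho = -0.713 (permutation p = 0.0113, adjusted p = 0.0452), and r = -0.608 without the 2 farthest libraries. Fabp4 had r = -0.721 (permutation p = 0.00911, adjusted p = 0.0547) and rho = -0.776 (permutation p = 0.00436, adjusted p = 0.0262). With group means taken out, r in normal libraries was -0.692 for Cidec and -0.504 for Fabp4. In tumours r was 0.142 for Cidec (exact permutation p = 0.715, adjusted p = 0.780; rho 0.317) and 0.523 for Fabp4 (exact permutation p = 0.152, adjusted p = 0.307; rho 0.65). Plin4 in tumours had rho = 0.833 with the epithelial sum (exact permutation p = 0.00827, adjusted p = 0.0397) and r = 0.514 (exact permutation p = 0.179, adjusted p = 0.330). With group means taken out that r was -0.025. Cfd had no relation past an adjusted p of 0.05 in the family.

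**Figure D4:**
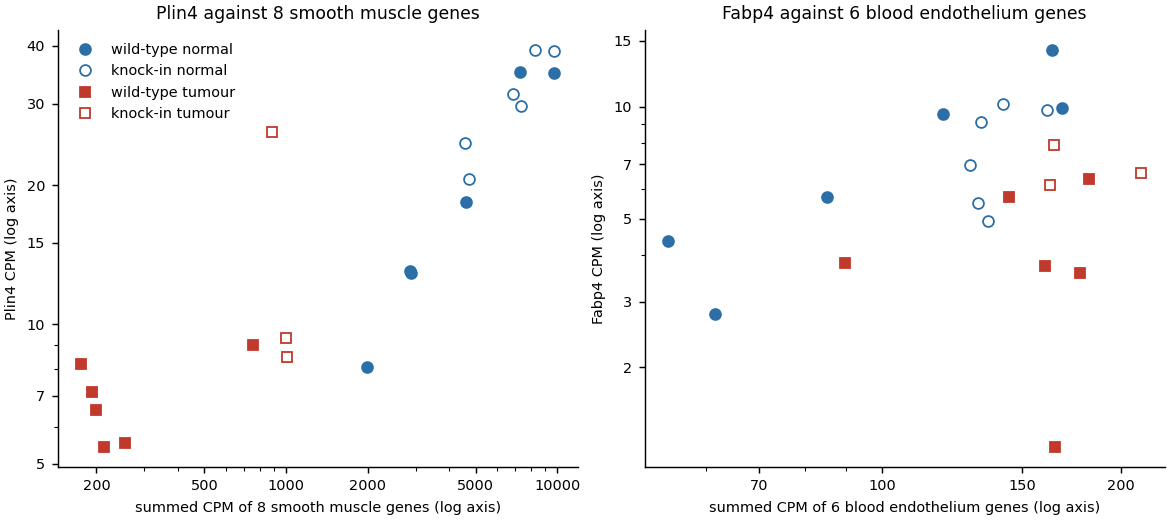
Left, Plin4 level against the summed level of 8 smooth muscle genes, and right, Fabp4 against 6 blood endothelium genes, all in CPM on log axes, with a point per library (circles normal, squares tumour, open symbols knock-in). The normal libraries form a band for Plin4 from 8.08 to 39.2 CPM, with the tumours at lower sums, and the knock-in tumour at 26.0 CPM lies above the others.

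Other genes of fat storage and of fat cell identity were taken from lists. Of 26 tested genes of lipid storage and lipolysis, 3 were higher and 7 lower in wild-type male tumours, 1 and 4 in those of knock-in males, and 6 and 6 in those of wild-type females, with median log2 differences of 0.10, -0.01 and 0.15. Read against the 35.7%, 20.4% and 49.1% of all tested genes that passed in these comparisons, the shares of this list were near the background. Fasn, the fatty acid synthase that epithelium also makes, was higher in tumours of both wild-type sexes (log2 1.12, SE 0.17, adjusted p = 0.000107 in males and 0.97, SE 0.17, adjusted p = 0.000153 in females, edgeR). Scd1, a desaturase, was higher in wild-type females (1.49, SE 0.25, adjusted p = 8.23e-05) and at 0.48 (SE 0.24, adjusted p = 0.129) in wild-type males. Acly, which supplies acetyl-CoA for lipid synthesis, was lower in both (-0.81 and -0.98). Cav1, caveolin 1, abundant in adipocytes, endothelium and smooth muscle, was lower in all 3 comparisons (-2.16, -1.06 and -2.30).

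Of 13 tested adipogenic regulators, 2 were higher and 7 lower in wild-type male tumours, 0 and 3 in those of knock-in males, and 2 and 4 in those of wild-type females, with medians of -0.48, -0.45 and -0.38. Over all tested genes 35.7%, 20.4% and 49.1% passed, of which lower genes were 19.3%, 9.97% and 24.0% of those tested. In wild-type females the list's share was near that background. Pparg, the nuclear receptor that drives fat cell differentiation and is also made by colon epithelium, was lower in wild-type males (log2 -1.03, SE 0.19, adjusted p = 0.000446, edgeR) and wild-type females (-0.78, SE 0.18, adjusted p = 0.00171), and was at 0.19 (SE 0.18, adjusted p = 0.457) in knock-in males. In normal colon of wild-type males Pparg stood at 34.7 ± 3.88 CPM and in their tumours at 17.5 ± 5.60 (SD, n = 3). Rxra, its partner, was lower in all 3 comparisons (-0.48, -0.41 and -0.53). Cebpa was lower in wild-type females (-0.61), and Srebf1, a regulator of lipid synthesis, was higher in wild-type males (0.51) and wild-type females (0.61).

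Of 7 tested receptors and partners of the secreted proteins, 1 was higher and 1 lower in wild-type male tumours, 0 and 0 in those of knock-in males, and 1 and 3 in those of wild-type females. Over all tested genes 35.7%, 20.4% and 49.1% passed, and the list's shares in wild-type males and females were near that background. Cdh13, T-cadherin, which binds adiponectin, was higher in tumours, in wild-type males (log2 1.65, SE 0.34, adjusted p = 0.0014, edgeR) and in wild-type females (3.44, SE 0.38, adjusted p = 2.43e-06). The adiponectin receptor Adipor2 was lower in both (-0.54 and -0.48) and Adipor1 in wild-type females (-0.37). The leptin receptor Lepr was at -0.28, 0.24 and 0.55 with no call, and Cfb, the substrate of adipsin, was lower in wild-type females (-0.64).

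Among paralogs of the 8 genes, 11 were tested, of which 0 were higher and 4 lower in wild-type male tumours, 0 and 1 in those of knock-in males, and 2 and 4 in those of wild-type females. With 35.7%, 20.4% and 49.1% of all tested genes past the threshold, the shares in wild-type males and females were near the background. Plin2, the perilipin of most cells, and Plin3 passed in none of the 3 comparisons, and Plin5 was higher in wild-type female tumours (log2 2.24, SE 0.46, adjusted p = 0.000597, edgeR). Cideb, the family member of liver and gut, was lower in all 3 (-1.53, -1.21 and -1.45). Fabp2, the intestinal fatty acid binding protein, was lower in wild-type males and females (-2.72 and -2.46), as was Retnla (-5.58 and -4.19), and Fabp6 (-2.56 and -2.89). Retnlg, expressed by neutrophils, was higher in wild-type female tumours (5.01, SE 1.30, adjusted p = 0.00412). Of 8 markers of brown and beige fat, 4 could be tested. In tumours 1 was higher and 2 lower in wild-type males, 1 and 1 in those of knock-in males, and 2 and 2 in those of wild-type females, where 35.7%, 20.4% and 49.1% of all tested genes passed. The list's median log2 differences were 0.19, 0.47 and 2.45. Otop1, a proton channel, was higher in wild-type males (2.82, SE 1.00, adjusted p = 0.0397, edgeR) and wild-type females (7.29, SE 1.56, adjusted p = 0.00122). Dio2, which activates thyroid hormone, was higher in knock-in males (4.17, SE 1.17, adjusted p = 0.0229) and wild-type females (5.68, SE 1.30, adjusted p = 0.00198). Ppargc1a, a coactivator of mitochondrial genes, was lower in wild-type males (-0.88) and wild-type females (-0.77). Cox7a1, a subunit of cytochrome c oxidase, was lower in all 3 (-1.41, -1.71 and -1.86). Ucp1, the uncoupling protein that defines brown fat, averaged at most 0.068 CPM in any group.

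The gene most like the mean log2 level of Adipoq, Plin1, Cidec and Cfd over the 21 libraries was Cyp2e1, a cytochrome P450 of liver and fat, with Pearson's r of 0.686 (0.717 with group means taken out). It had 53 counts in wild-type male normal replicate 1 and 25 in knock-in male normal replicate 1, but 3 in wild-type female normal replicate 1 and 24 in knock-in male tumour replicate 1. Kcns1, Dock9, Cdc42ep3, Chrdl2, Mir200a, Cartpt and Thbs3 followed with r from 0.607 down to 0.575. With group means taken out the order differed: the 8 highest ran from Tmem150c (0.796) to Slc39a8 (0.753), without Cyp2e1, and the r of these 2 before that step was 0.087 and 0.089. These values describe 21 libraries that differ in depth.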

How the data were processed

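Gene counts were deposited by the authors as raw counts for 24062 genes in 21 libraries, per the file headers. The submitters' processing notes name Trimmomatic, HISAT2, featureCounts, DESeq2 and mm10, with no version or role. Annotation, strand setting and treatment of shared reads are not given in the sources used here, so reads shared with paralogs or antisense genes cannot be told apart. A second deposited table, of the authors' comparisons, was not used. Groups come from the sample labels, and 0 per-sample columns were left out.

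CPM used TMM-scaled totals. Tests were quasi-likelihood F tests of edgeR (two-sided, robust, filterByExpr by group, 15936 genes) in a single fit of 21 libraries, with 9 pair comparisons, 3 interactions and Benjamini-Hochberg adjustment over all tested genes. Zeros were given a limit of 3 counts, and Poisson intervals have 95% confidence. Marker lists and the 8 genes were chosen with earlier results of these data known. Genes of the pathway lists named in the text were the 4 of highest mean CPM among those called in a tumour comparison, besides receptors and paralogs. The 8 genes most like the mean of Adipoq, Plin1, Cidec and Cfd were named too. Ucp1 and the single mesothelial genes, chosen after their values were seen, are outside that rule.

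Same-numbered libraries of wild-type male normal colon and tumour deviated together (r = 0.169, 0.174 and 0.215), so the replicate block, fitted on 18 libraries, is given for that comparison. The block gives each replicate number an effect shared by all 18, over both genotypes and sexes. Same-numbered libraries elsewhere did not all deviate together. The lowest r was -0.300, for replicate 1 of knock-in male normal colon and tumour. The highest was 0.461, for replicate 1 of knock-in and wild-type male normal colon. Use of the number is a hint from the data, since the labels do not say what a number shares. Other comparisons did not meet that rule. The tests were tried on simulated counts. Replicates differed by at least 6.60 times the sampling noise (chi-square per degree of freedom). Tools were edgeR 4.0.16, DESeq2 1.42.0 and limma 3.58.1 in R 4.3.3, and scipy 1.17.1 in Python 3.11.15. Alternatives were the Wald test of DESeq2, its size factors, voom (limma, with quality weights), unscaled library totals, no low-count filter, a minimum mean of 50 counts, a fit of the compared groups alone, the block, libraries numbered 152 and above as covariate, and omission of each library.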

Additional observations from a re-analysis of the deposited data

How the results depend on the processing

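Counts of called genes are of the tested genes among the 8, and they show only which calls changed. In the fit of all 21 libraries, 35.7%, 20.4% and 49.1% of all tested genes passed for tumours of wild-type males, knock-in males and wild-type females. For genotype in female normal colon 16.0% passed, and for sex in normal colon 15.9% in wild-type and 0.584% in knock-in mice. Shares under the alternatives are not given here, so their counts are not read as results about the 8 genes. With the DESeq2 Wald test 1 (Cfd) was called in knock-in male tumours, 1 (Plin4) in wild-type female tumours and 2 (Plin4, Fabp4) in female against male wild-type normal colon, where voom also called 2. When the fit held the compared groups alone, 1 (Plin4) was called in wild-type male and 1 (Plin4) in wild-type female tumours. With libraries numbered 152 and above as a covariate, 1 (Plin4) was called in knock-in male (-1.47) and 1 (Plin4) in wild-type female (-1.70) tumours. Without the low-count filter, 0 were called in knock-in against wild-type female normal colon, and none of Adipoq, Plin1, Lep and Retn, which then entered the fit, was called in any comparison. With normal replicate 1 of wild-type males, knock-in males and wild-type females left out together, which was chosen after the data were seen, 1 (Plin4) was called for wild-type male tumours, 0 for knock-in against wild-type female normal colon and 0 in female against male wild-type normal colon, and Cidec in wild-type male tumours turned to 0.12 (0.116841 unrounded). Leaving out 1 library each, the counts ranged from 0 to 1 in knock-in male and wild-type female tumours, in knock-in against wild-type female normal colon and in female against male knock-in normal colon, from 0 to 2 in female against male wild-type normal colon, and from 2 to 3 in wild-type male tumours. Under the same omissions the log2 difference in tumours ranged from -0.70 to 0.12 for Cidec in wild-type males, -4.07 to 0.97 for Cfd in knock-in males, -2.22 to 0.13 for Cfd in wild-type females and -0.43 to 0.018 for Fabp4 in wild-type females. The cause of these changes was not tested. With the replicate block, wild-type male tumours had 3 called (Plin4 at -1.91, Fabp4 at -1.46 and Cfd at -4.14), and the block changed no other call in the comparisons it could be fitted to. Plin4 in wild-type male tumours was past the threshold under each alternative run, between -2.25 and -1.70. Counts at or under 3 set the limit for Adipoq, Lep, Plin1 and Retn.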
